A study of Mus musculus with 11 samples.

Results

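The 10 genes described here encode the core of MHC class I antigen presentation: the heavy chains H2-K1 and H2-D1 and their light chain B2m, the immunoproteasome subunits Psmb8, Psmb9 and Psmb10, the peptide transporter Tap1 and Tap2, the loading factor Tapbp, and the transcriptional activator Nlrc5. They were listed by name from known function, by a rule that uses no measured value, although earlier results of these data were known when the list was made. All 10 were found among the 22608 genes of the table. RNA was sequenced from the ventricles of male mice aged 8 to 16 weeks on a C57BL/6J background. Complete deletion (CD) mice are heterozygous for a deletion of the chromosome 5 interval that matches the Williams-Beuren syndrome (WBS) region, and wild-type (WT) littermates carry both copies. Each genotype received vehicle (VEH) or JZL184, an inhibitor of the enzyme that degrades the endocannabinoid 2-AG, at 8 mg/kg i.p. once a day for 10 days. There were 2 mice in the WT VEH group and 3 in each of the WT JZL184, CD VEH and CD JZL184 groups, each sample a separate animal. Control mice carry a treatment label of untreated but vehicle in their titles, and are named VEH here. The deletion is present in every cell of the CD mice, and whole ventricles hold many cell types.

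MHC class I molecules display peptides from inside the cell to CD8 T cells and are made by almost all nucleated cells. The proteasome cuts proteins into peptides, and interferon exchanges its catalytic subunits for the immunoproteasome subunits, which changes the peptides that are made. TAP carries these peptides into the endoplasmic reticulum, where tapasin (Tapbp) holds empty class I molecules next to it until a peptide binds. Nlrc5 is recruited to the promoters of class I genes and raises their transcription together with that of B2m, Tap1 and Psmb9. Cardiomyocytes have little class I at rest, whereas endothelial cells and macrophages of the heart have more.

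The libraries held 69660329 to 92251550 counts. A count of 3, used as the smallest level that can be told from 0, corresponded to 0.0325 to 0.0431 CPM (counts scaled to library size with TMM factors) and covers counting error only. Cardiomyocyte markers were high in every library (Myh6 between 8279 and 16035 CPM), and all 14 tested genes from Gtf2i to Fkbp6, within the deleted interval, were lower in each CD mouse than in any WT mouse. CD VEH mouse A stood apart in erythroid genes, with a summed level of 18832 CPM for 5 markers against 1419 to 5512 CPM in the other mice, and counts of class I genes that rest on CD VEH are also given without it. The letters that name mice come from the columns of the table.

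Of the 10 genes, 7 lie in the H2 complex on chromosome 17 of GRCm38 (GENCODE release M21). Psmb9, Tap1, Psmb8 and Tap2 form a compact run there, with Psmb9 at chr17:34181987-34187764 on the minus strand, Tap1 at chr17:34187553-34197225, Psmb8 at chr17:34197721-34201454 and Tap2 at chr17:34203527-34216321, all 3 on the plus strand. Tapbp is at chr17:33915899-33929292 (plus), H2-K1 at chr17:33996017-34000347 (minus) and H2-D1 at chr17:35262730-35267499 (plus). B2m is at chr2:122147686-122153083 (plus), Psmb10 at chr8:105935735-105938444 (minus) and Nlrc5 at chr8:94434356-94527272 (plus). Tap1 and Psmb9 overlap at their 5′ ends on opposite strands.

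The promoters are shown because Nlrc5, interferon and NF-kappa B act on class I genes through short elements just before the start site. RefSeq windows (GRCm38.p6, 250 bases before to 50 after the start site) were at hand for 8 of the 10 genes, Tap2 and Nlrc5 not among them, and 4 motifs were searched on both strands: GGGATTCCC (kappa B site), TGACGC (CREB site), ATTGG (inverted CCAAT box) and GAAANNGAA (interferon regulatory factor element). Each line gives the 180 bases before the start site, 5′ to 3′ on the strand of the gene, with matches to these motifs in capitals. B2m is chr2:122147507-122147686 (plus), H2-K1 is chr17:34000348-34000527 (minus, the first of its windows) and H2-D1 is chr17:35262914-35263093 (plus).
H2-K1: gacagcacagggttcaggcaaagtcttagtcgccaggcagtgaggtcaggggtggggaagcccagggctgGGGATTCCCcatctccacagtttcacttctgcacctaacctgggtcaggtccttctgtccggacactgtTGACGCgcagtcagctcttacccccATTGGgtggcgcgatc
H2-D1: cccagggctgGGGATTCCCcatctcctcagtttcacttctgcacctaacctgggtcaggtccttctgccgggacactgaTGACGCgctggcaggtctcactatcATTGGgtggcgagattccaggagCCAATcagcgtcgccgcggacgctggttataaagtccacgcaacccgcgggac
B2m: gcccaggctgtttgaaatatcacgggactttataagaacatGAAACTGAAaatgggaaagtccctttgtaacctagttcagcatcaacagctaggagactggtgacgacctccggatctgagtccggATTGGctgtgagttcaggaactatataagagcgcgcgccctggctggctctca

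The kappa B site was found in H2-K1 (-110 to -102 from the start site) and H2-D1 (-170 to -162), and in 0.353% of all 32851 windows. The CREB site was in the same 2 promoters and in 7.4% of all windows. The distance from the first base of the kappa B site to that of the CREB site was 69 bases in both genes, and from there to the first inverted CCAAT box it was 25 bases in both. Lined up at the kappa B site, 107 of 120 bases (89.2%) of the promoters of H2-K1 and H2-D1 were identical. The interferon regulatory factor element, in the searched form only, was found in B2m (-139 to -131) and in 8.56% of all windows. Other forms of this element were not searched. The H2-K1 and H2-D1 promoters may hold such a form, and its absence there was not shown. The inverted CCAAT box was in 6 of the 8 genes and in 37.4% of all windows, and no matches overlapped. The windows of Tap1 and Psmb9, which face away from each other, share 275 bases. These matches are letters in a sequence, and binding was not measured.

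All 10 genes were well above the smallest detectable level, from 323 counts (the lowest mouse for Nlrc5) to 20643 counts (the highest mouse for B2m), and all passed the filter on low counts (average log2 CPM of at least 1), as did 11319 genes in all. Per kilobase of the longest coding transcript and averaged over the 11 mice, B2m had the highest level (216 CPM per kb), followed by H2-D1 (79.7) and H2-K1 (74.9). Psmb10 (22.9 CPM per kb) and Tapbp (14.5) came next, then Psmb8 (6.82), Tap2 (6.34), Psmb9 (4.73) and Tap1 (3.18), with Nlrc5 (0.875) the lowest. Each gene was above the next one in all 11 mice, except that H2-D1 was above H2-K1 in 9 mice and Psmb8 above Tap2 in 6, so these neighbours were not separated.

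B2m, the light chain shared by all class I molecules, was at 119 and 121 CPM in WT VEH mice and at 205, 283 and 218 CPM in WT JZL184 mice. It was at 216, 203 and 242 CPM in CD VEH mice and at 119.7, 165 and 147 CPM in CD JZL184 mice. WT JZL184 and CD VEH were thus both entirely above WT VEH and above CD JZL184, and the lowest CD JZL184 mouse lay between the WT VEH mice. H2-K1, a classical heavy chain, was at 81.3 and 82.4 CPM in WT VEH, at 124, 179 and 142 in WT JZL184, at 136, 130.0 and 149 in CD VEH and at 85.4, 113 and 113 in CD JZL184. H2-D1, the other classical heavy chain of this strain, was at 112 and 117 CPM in WT VEH, at 177, 264 and 206 in WT JZL184, at 183, 178 and 201 in CD VEH and at 116, 146 and 143 in CD JZL184. Both heavy chains had the same arrangement as B2m, with all CD JZL184 mice below all CD VEH and all WT JZL184 mice, and for H2-K1 also above both WT VEH mice.

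Psmb8 encodes the immunoproteasome subunit that takes the place of Psmb5. It was at 7.89 and 8.11 CPM in WT VEH, at 10.2, 17.2 and 13.5 in WT JZL184, at 13.1, 11.7 and 14.4 in CD VEH and at 6.83, 10.2 and 9.10 in CD JZL184. Psmb9, which takes the place of Psmb6, was at 4.84 and 4.64 CPM in WT VEH, at 6.40, 9.85 and 7.59 in WT JZL184, at 7.82, 6.80 and 6.92 in CD VEH and at 4.16, 5.62 and 5.70 in CD JZL184. Neither gene overlapped between WT VEH and CD VEH or between CD VEH and CD JZL184, and 1 CD JZL184 mouse was below both WT VEH mice for each. Psmb10, which takes the place of Psmb7, was at 24.8 and 25.6 CPM in WT VEH, at 31.8, 33.4 and 32.6 in WT JZL184, at 33.2, 32.7 and 32.7 in CD VEH and at 26.7, 29.6 and 27.5 in CD JZL184. CD JZL184 lay between WT VEH and the other two groups in every mouse.

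Tap1 and Tap2 form the transporter that brings peptides into the endoplasmic reticulum. Tap1 was at 6.89 and 7.54 CPM in WT VEH, at 8.22, 13.4 and 12.4 in WT JZL184, at 9.47, 9.46 and 11.2 in CD VEH and at 6.84, 8.87 and 9.10 in CD JZL184. Tap2 was at 16.7 and 18.4 CPM in WT VEH, at 20.9 to 27.1 in WT JZL184, at 23.4, 22.5 and 22.9 in CD VEH and at 19.6, 23.5 and 20.9 in CD JZL184. CD JZL184 overlapped with CD VEH for Tap2 but not for Tap1. Tapbp, the tapasin gene, was at 33.3 and 38.7 CPM in WT VEH, at 41.7, 46.6 and 48.8 in WT JZL184, at 43.6, 45.2 and 44.0 in CD VEH and at 37.4, 42.5 and 40.2 in CD JZL184. Nlrc5, the activator of the pathway, was at 4.68 and 6.27 CPM in WT VEH, at 5.29, 9.39 and 7.79 in WT JZL184, at 6.83, 6.86 and 8.42 in CD VEH and at 5.26, 5.29 and 6.84 in CD JZL184. CD VEH was above WT VEH in every mouse for both genes, and for Nlrc5 the JZL184 groups overlapped with the vehicle groups of their genotype.

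Within 3 of the groups, 9 or 10 of the genes put the same mouse lowest. WT JZL184 mouse A was the lowest of its group for all 10 genes, CD JZL184 mouse A was the lowest of its group for all 10, WT JZL184 mouse B was the highest of its group for 9 and WT VEH mouse C was the lower of its group for 9. CD VEH was less uniform, with mouse C the lowest for 7 genes, A for 2 and E for 1. WT JZL184 mouse B also had the highest summed level of 6 macrophage markers (507 CPM) and the lowest of 5 cardiomyocyte markers (16712 CPM) of the 11 mice, and the part of these cells in its class I levels was not tested.

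**Figure D1:**
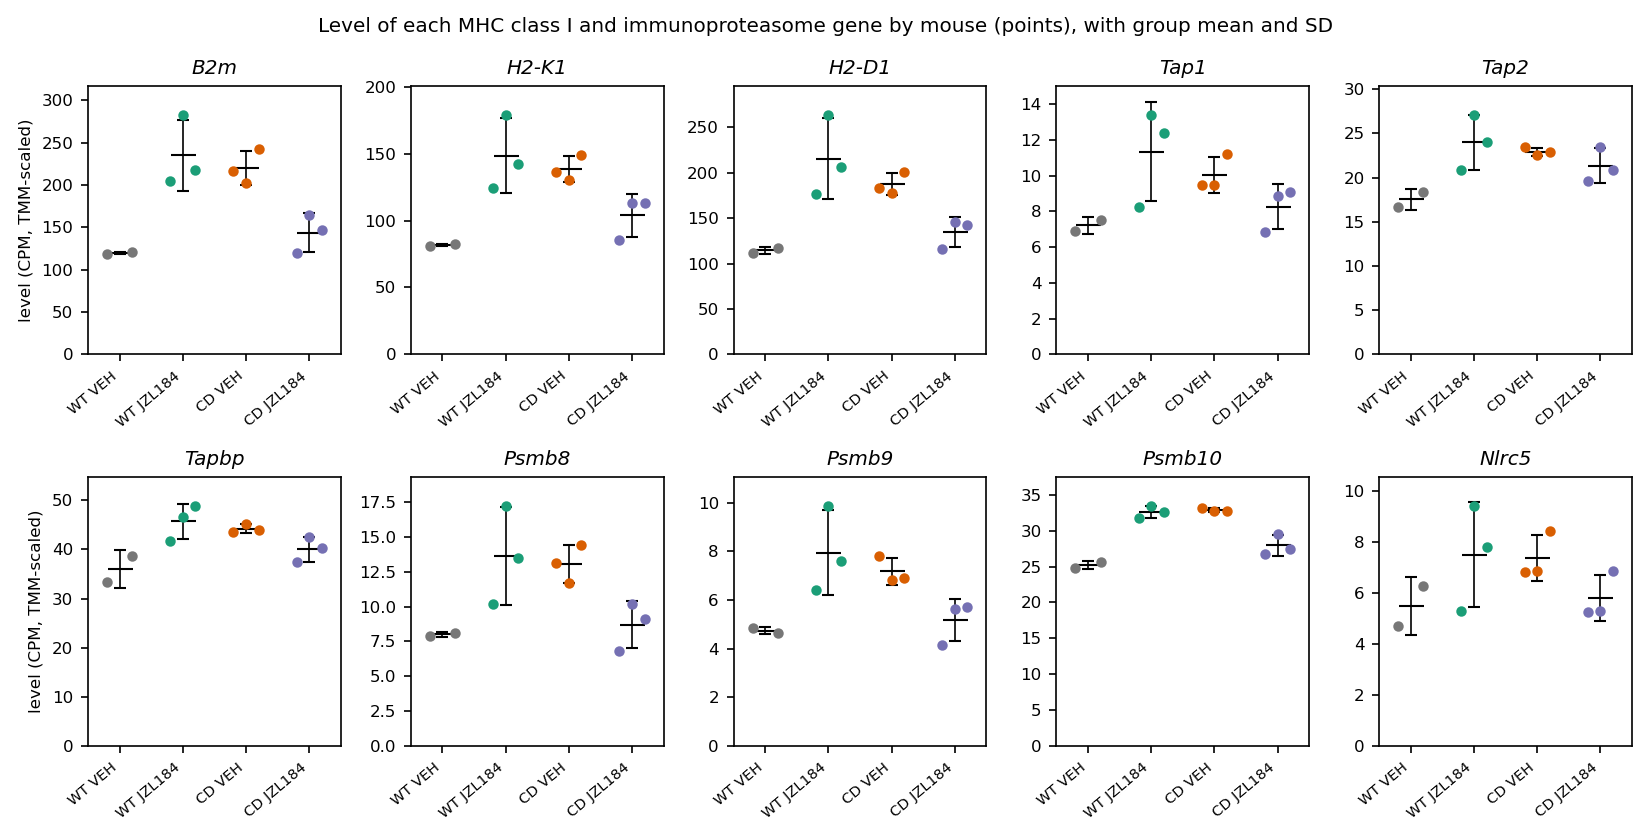
Level of each of the 10 genes in CPM (vertical axes, from 0) in the 4 groups. Points are mice, horizontal bars are group means and vertical bars are SD (n = 2 for WT VEH, n = 3 for the others). B2m is at 119 and 121 CPM in WT VEH, at 203 to 242 CPM in CD VEH and at 119.7 to 165 CPM in CD JZL184.

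Vehicle-treated CD mice were first compared with vehicle-treated WT mice, which asks how the deletion changes these genes in the heart. Of the 10 genes, 8 were higher in CD VEH than in WT VEH by edgeR's quasi-likelihood test (adjusted p under 0.05 over all 11319 genes), whereas 15.0% of all tested genes were called higher. B2m rose most, 1.84-fold (log2 0.88 ± 0.15 SE, adjusted p = 0.0038), with a mean of 221 CPM (SD 20.0, n = 3) against 120.1 CPM (SD 0.994, n = 2). H2-K1 rose 1.69-fold (log2 0.76 ± 0.15, adjusted p = 0.00593) and H2-D1 1.64-fold (0.71 ± 0.15, adjusted p = 0.00695). The immunoproteasome subunits Psmb8 (0.70 ± 0.20, adjusted p = 0.0233), Psmb9 (0.60 ± 0.18, adjusted p = 0.0264) and Psmb10 (0.38 ± 0.06, adjusted p = 0.00306) rose as well, on the log2 scale. In the loading group, Tap2 (0.39 ± 0.11, adjusted p = 0.0199) and Tapbp (0.30 ± 0.09, adjusted p = 0.0247) rose. Tap1 (0.48 ± 0.19, adjusted p = 0.0714) and Nlrc5 (0.43 ± 0.22, adjusted p = 0.153) did not pass, with 95% intervals of 0.07 to 0.88 and -0.05 to 0.90. The groups did not overlap for any of the 10 genes, as for 32.5% of all tested genes in this direction. The median log2 fold change of the 10 genes was 0.54 and that of all tested genes 0.009. Without CD VEH mouse A, 4 genes passed (B2m, H2-K1, H2-D1 and Psmb10), as without CD VEH mouse E. Without WT VEH mouse C, 2 passed (Psmb10, and B2m just under the threshold, with an adjusted p that rounds to 0.05), and 5 passed without WT VEH mouse D (those 4 and Tapbp). With an offset for gene length, 7 passed, Psmb9 not among them, and Psmb10 had a smaller log2 fold change of 0.20.

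JZL184 was then compared with vehicle in WT mice. The same 8 genes and Tap1 were higher in WT JZL184 than in WT VEH, 9 of 10, whereas 15.4% of all tested genes were called higher. B2m rose 1.96-fold (log2 0.97 ± 0.15, adjusted p = 0.00258), H2-D1 1.88-fold (0.91 ± 0.15, adjusted p = 0.0029) and H2-K1 1.81-fold (0.85 ± 0.15, adjusted p = 0.00388). Psmb8 (0.76 ± 0.20, adjusted p = 0.017), Psmb9 (0.74 ± 0.18, adjusted p = 0.0115) and Psmb10 (0.37 ± 0.06, adjusted p = 0.00289) rose, with Psmb10 at a mean of 32.6 CPM (SD 0.796) against 25.2 CPM (SD 0.607). Tap1 (0.65 ± 0.19, adjusted p = 0.0242), Tap2 (0.45 ± 0.11, adjusted p = 0.0111) and Tapbp (0.34 ± 0.09, adjusted p = 0.0141) rose, and Nlrc5 did not pass (0.45 ± 0.22, adjusted p = 0.138, 95% interval -0.03 to 0.93). The groups did not overlap for 9 genes (27.4% of all tested genes in this direction), the exception being Nlrc5. The median log2 fold change was 0.70 for the 10 genes and -0.003 for all tested genes. This comparison and that of CD VEH share the WT VEH mice, so they are not independent of each other. Without WT VEH mouse C, 4 genes passed (B2m, H2-K1, H2-D1 and Psmb10), and without WT VEH mouse D, 6 passed (those 4, Tap2 and Tapbp). With the offset for gene length Psmb10 had a log2 fold change of 0.22 and still passed.

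In CD mice, JZL184 went with lower levels. Compared with CD VEH, 6 of the 10 genes were lower in CD JZL184, whereas 17.0% of all tested genes were called lower. B2m fell to 0.653 of its CD VEH level (log2 -0.62 ± 0.13, adjusted p = 0.00625), with a mean of 144 CPM (SD 22.8) against 221 CPM. Psmb8 fell to 0.67 (log2 -0.58 ± 0.18, adjusted p = 0.0261), Psmb9 to 0.719 (-0.48 ± 0.15, adjusted p = 0.034) and Psmb10 to 0.849 (-0.24 ± 0.05, adjusted p = 0.00798). H2-D1 fell to 0.718 (-0.48 ± 0.13, adjusted p = 0.0169) and H2-K1 to 0.749 (-0.42 ± 0.13, adjusted p = 0.0309). The peptide-loading genes and Nlrc5 did not pass. Their log2 fold changes were -0.28 ± 0.16 for Tap1 (adjusted p = 0.198), -0.11 ± 0.09 for Tap2 (adjusted p = 0.392), -0.14 ± 0.08 for Tapbp (adjusted p = 0.163) and -0.35 ± 0.19 for Nlrc5 (adjusted p = 0.175). The groups did not overlap for 8 genes, Tap2 and Nlrc5 being the exceptions (27.3% of all tested genes in this direction). The median log2 fold change was -0.38 for the 10 genes and -0.002 for all tested genes. The count rests on single mice: 3 genes passed without CD VEH mouse A (B2m, H2-D1 and Psmb10), 2 without CD VEH mouse E or without CD JZL184 mouse A (B2m and Psmb10) and 4 without CD JZL184 mouse E (B2m, H2-K1, H2-D1 and Psmb10). With an offset for gene length, 2 passed (B2m and H2-D1), with B2m at a smaller log2 fold change of -0.33 (adjusted p = 0.0469), Psmb9 at -0.30 (adjusted p = 0.134) and Psmb10 at -0.05 (adjusted p = 0.477).

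**Figure D2:**
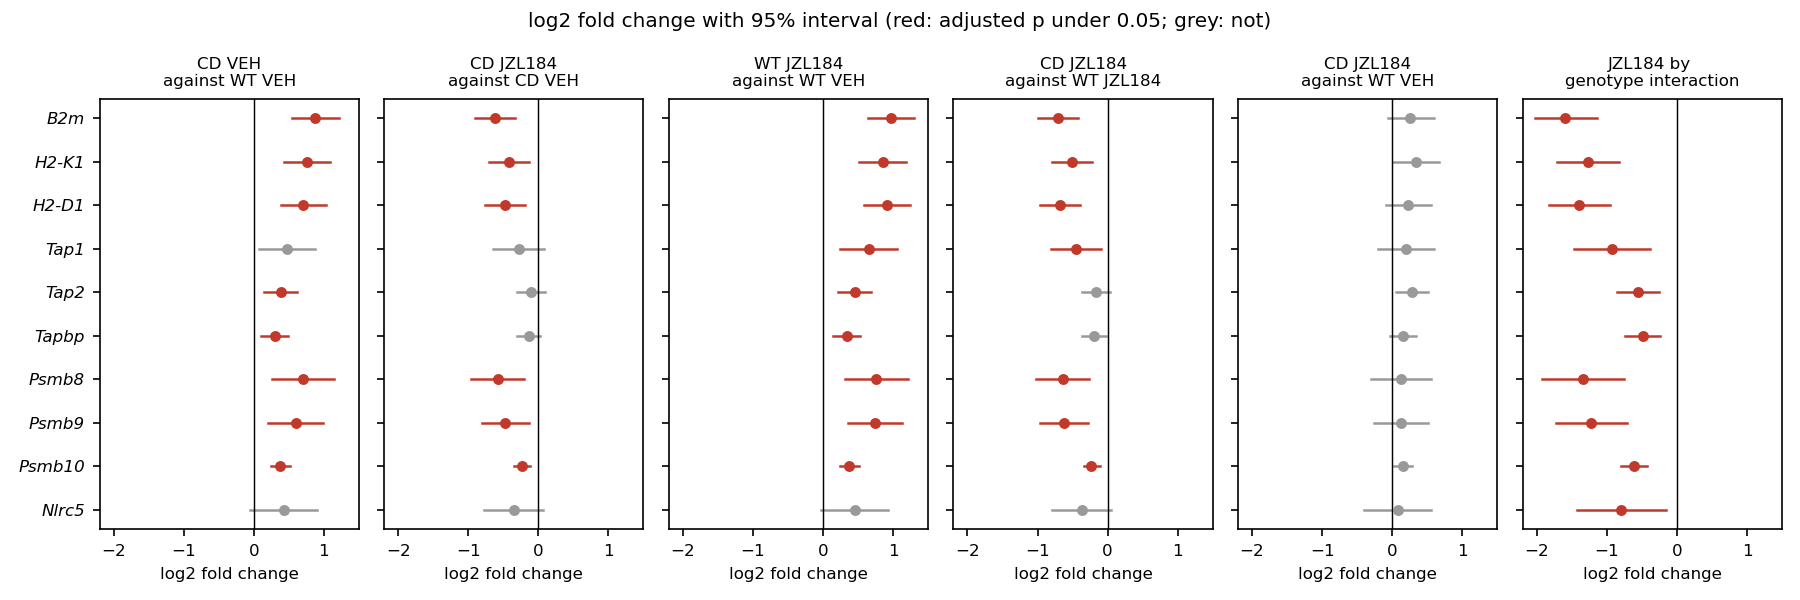
log2 fold change (horizontal axes) of each gene in the 6 comparisons, with 95% intervals from edgeR's quasi-likelihood fit. Red marks an adjusted p under 0.05 and grey the rest. The interaction is the JZL184 effect in CD mice minus that in WT mice, and it is below 0 for all 10 genes, from -1.59 (B2m) to -0.49 (Tapbp).

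Between the treated groups, 7 of the 10 genes were lower in CD JZL184 than in WT JZL184, and 20.1% of all tested genes were. B2m had a log2 fold change of -0.71 ± 0.13 (adjusted p = 0.00248), H2-D1 of -0.68 ± 0.13 (adjusted p = 0.0027), H2-K1 of -0.51 ± 0.13 (adjusted p = 0.0109) and Psmb8 of -0.64 ± 0.18 (adjusted p = 0.0144). Psmb9 (-0.62 ± 0.15, adjusted p = 0.00924), Psmb10 (-0.23 ± 0.05, adjusted p = 0.00764) and Tap1 (-0.45 ± 0.16, adjusted p = 0.0452) were lower as well. Tap2, Tapbp and Nlrc5 had log2 fold changes of -0.17, -0.19 and -0.37 and adjusted p-values of 0.168, 0.0683 and 0.145. The groups did not overlap for 5 genes (24.3% of all tested genes in this direction). These were B2m, H2-K1, H2-D1, Psmb9 and Psmb10, whereas the lowest WT JZL184 mouse (A) reached into the range of CD JZL184 for the others. Between 5 and 10 genes passed when any one mouse was left out, with 10 passing without WT JZL184 mouse A. With the offset for gene length 5 passed, and Psmb10 (-0.06, adjusted p = 0.34) and Tap1 did not.

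Treated CD mice were also compared with vehicle-treated WT mice. None of the 10 genes passed in CD JZL184 against WT VEH by edgeR or DESeq2, and 3 had an unadjusted p under 0.05 in edgeR (H2-K1, Tap2 and Psmb10). In that comparison 21 of 11319 genes (0.186%) were called in either direction. All 10 log2 fold changes were above 0, from 0.08 (Nlrc5, 95% interval -0.40 to 0.55) to 0.34 (H2-K1, 0.01 to 0.67), with B2m at 0.26 (-0.06 to 0.59) and Psmb10 at 0.15 (0.02 to 0.28). The same 3 genes did not overlap between the groups (17.7% of all tested genes in this direction). For B2m the interval leaves room for a difference of up to 0.59 on the log2 scale, so equal levels were not shown.

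The effect of JZL184 was compared between genotypes by the interaction term. It was negative for all 10 genes, which all passed, whereas 26.2% of all tested genes passed in this direction. On the log2 scale, the effect in CD mice minus that in WT mice was -1.59 ± 0.20 for B2m (adjusted p = 0.000206), -1.39 ± 0.20 for H2-D1 (adjusted p = 0.000311) and -1.27 ± 0.20 for H2-K1 (adjusted p = 0.00048). It was -1.34 ± 0.27 for Psmb8 (adjusted p = 0.00175), -1.22 ± 0.24 for Psmb9 (adjusted p = 0.00146) and -0.61 ± 0.08 for Psmb10 (adjusted p = 0.000239). In the peptide-loading group the values were closer to 0 than those of B2m and the heavy chains, with Tap1 at -0.93 ± 0.25 (adjusted p = 0.00861), Tap2 at -0.55 ± 0.14 (adjusted p = 0.0068) and Tapbp at -0.49 ± 0.12 (adjusted p = 0.00462). Nlrc5 had -0.80 ± 0.29 (adjusted p = 0.0375). Between 9 and 10 genes passed when any one mouse was left out, and the gene lost was Nlrc5 each time (adjusted p up to 0.165, without WT VEH mouse C). The interaction uses the same mice as the comparisons above and adds only the test of the difference.

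H2-K1 and H2-D1 share sequence, so reads can be assigned to the wrong one. Of the stretches of 31 bases in their transcripts, 22.8% of those of H2-K1 and 26.9% of those of H2-D1 also occur in other genes, mostly in each other and in the H2-Q genes. Summed before the test, they had log2 fold changes of 0.73 ± 0.15 for CD VEH over WT VEH (adjusted p = 0.00668), 0.89 ± 0.15 for WT JZL184 over WT VEH (adjusted p = 0.00352) and -0.45 ± 0.13 in CD JZL184 against CD VEH (adjusted p = 0.0229). The sum of all 10 tested heavy chains of the H2 complex was at 297 and 296 CPM in WT VEH, at 442, 649 and 516 in WT JZL184, at 485, 464 and 515 in CD VEH and at 313, 391 and 405 in CD JZL184. Its log2 fold changes in the same comparisons were 0.72, 0.85 and -0.40, all past the threshold. B2m and Psmb10 share no stretch with another gene. Tapbp (26.9%), Tap2 (14.3%) and Psmb8 (13.7%) share stretches mostly with overlapping or readthrough models, and their values are less certain for it. The library's strand setting is not given in the sources used here, so reads of Tap1 and Psmb9 where they overlap cannot be told apart by strand.

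The constitutive subunits that the immunoproteasome subunits replace gave no call. Psmb5, Psmb6 and Psmb7 did not pass in any of the 6 comparisons, and their group means lay between 59.9 and 62.6, 76.4 and 87.0, and 115 and 124 CPM. Per kilobase, the ratio of Psmb8 to Psmb5 was 0.0729 in both WT VEH mice, 0.0896 to 0.159 in WT JZL184, 0.102 to 0.124 in CD VEH and 0.0634 to 0.092 in CD JZL184. The ratio of Psmb9 to Psmb6 was 0.0359 and 0.0374 in WT VEH, between 0.0432 and 0.0738 in WT JZL184, 0.0476 to 0.0507 in CD VEH and 0.031 to 0.0433 in CD JZL184. The ratio of Psmb10 to Psmb7, the highest of the 3, was 0.19 and 0.192 in WT VEH, between 0.208 and 0.265 in WT JZL184, 0.226 to 0.245 in CD VEH and 0.204 to 0.223 in CD JZL184. Each ratio was higher in all CD VEH mice than in all WT VEH and all CD JZL184 mice, whereas WT JZL184 mouse A was within the range of CD JZL184 for all 3 ratios. No test was run on the ratios.

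Of the 8 proteasome partners, which are the constitutive subunits, the activator subunits Psme1 to Psme4 and the assembly chaperone Pomp, 1 rose (Psme2) and 1 fell (Psme4) in CD VEH against WT VEH, and the median log2 fold change was 0.07. Psme2, a subunit of the interferon-induced PA28 activator, was at 33.1 and 32.2 CPM in WT VEH and at 43.5, 39.0 and 42.7 CPM in CD VEH, which do not overlap (log2 0.35, adjusted p = 0.0104). It fell in CD JZL184 against CD VEH (log2 -0.25, adjusted p = 0.0214), with values of 34.2, 37.3 and 33.4 CPM. Its partner Psme1 did not pass in any comparison (0.12 for CD VEH over WT VEH, adjusted p = 0.18). Psme4, the PA200 activator, went the other way, with log2 fold changes of -0.48 for CD VEH over WT VEH (adjusted p = 0.00935) and 0.36 in CD JZL184 against CD VEH (adjusted p = 0.0165). Pomp fell in CD JZL184 against CD VEH (log2 -0.23, adjusted p = 0.0266). In CD JZL184 against CD VEH, 1 of the 8 rose and 2 fell. There, 1905 of 11319 tested genes were called higher and 1926 (17.0%) lower. Without CD VEH mouse A, none of the 8 passed in that comparison.

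**Figure D3:**
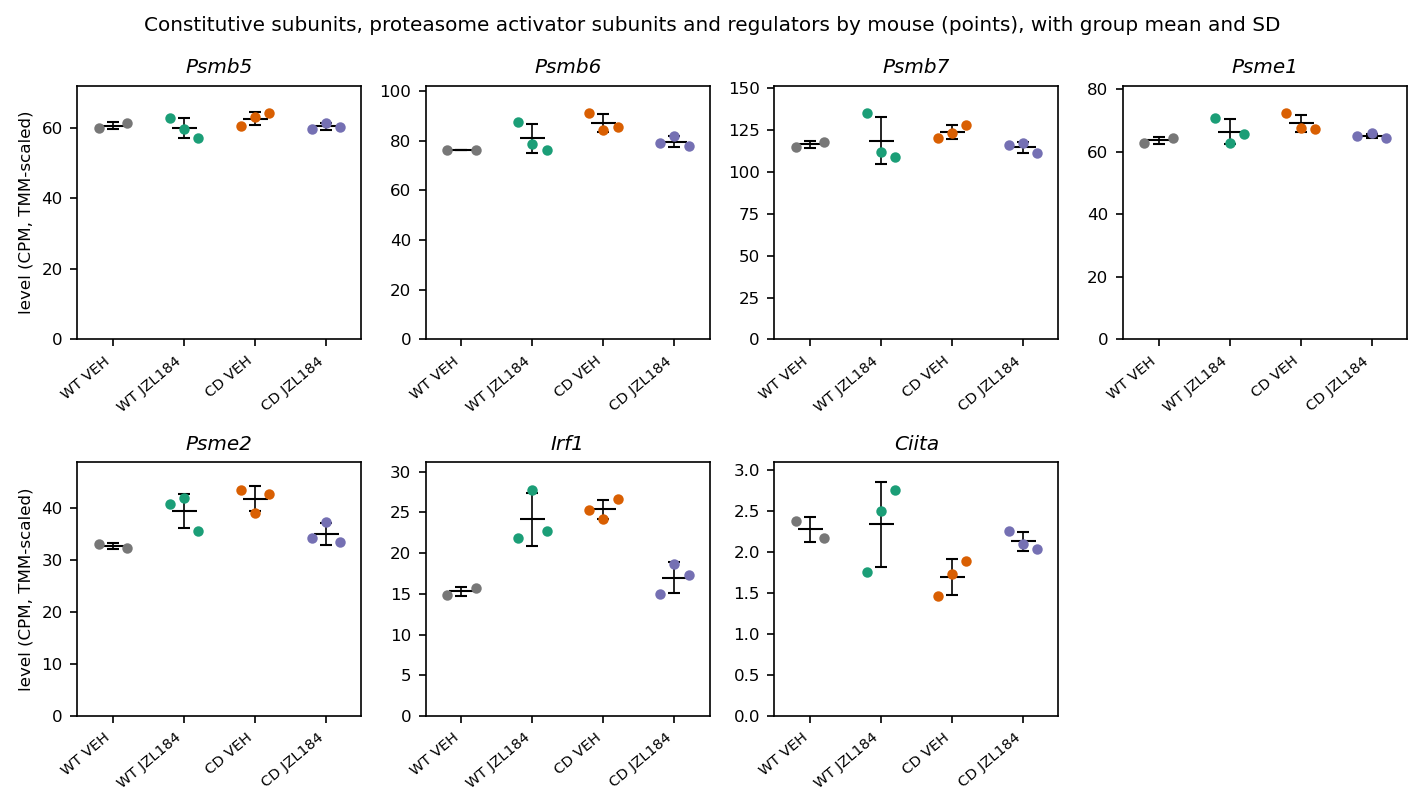
Level in CPM (vertical axes, from 0) of the constitutive subunits Psmb5, Psmb6 and Psmb7, the activator subunits Psme1 and Psme2, and the regulators Irf1 and Ciita in the 4 groups. Points are mice, horizontal bars are means and vertical bars are SD. Between CD VEH and WT VEH, Irf1 and Psme2 passed and the other 5 genes did not, although the CD VEH mice are also above the WT VEH mice for Psmb6, Psmb7 and Psme1, as for 32.5% of all tested genes.

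Of 6 other genes of peptide loading and trimming (Tapbpl, Calr, Canx, Pdia3, Erap1 and Lnpep), 1 rose and 1 fell in CD VEH against WT VEH, with a median log2 fold change of -0.15. Over all tested genes 15.0% were called higher and 15.4% lower in that comparison, so these counts are near the background. The gene that rose was Tapbpl (0.41, adjusted p = 0.0203), the tapasin-related peptide editor, which also rose in WT JZL184 against WT VEH (0.56, adjusted p = 0.00646). Lnpep, an endosomal aminopeptidase, fell in CD VEH (-0.59, adjusted p = 0.0116) and was higher in CD JZL184 than in CD VEH (0.64, adjusted p = 0.00505).

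Of the other class I and class I-like heavy chains, 15 were in the table. Of the 12 that were tested, 9 rose in CD VEH against WT VEH (median log2 0.54), 9 rose in WT JZL184 against WT VEH (median 0.62), 4 fell in CD JZL184 against CD VEH (median -0.23) and 9 had a negative interaction (median -0.90). Beside these counts, 15.0%, 15.4%, 17.0% and 26.2% of all tested genes were called in the same directions. H2-T23, which encodes the ligand of the NK receptor CD94/NKG2, was at 19.5 and 20.6 CPM in WT VEH, at 33.4, 29.6 and 32.6 in CD VEH and at a mean of 23.2 in CD JZL184, where the highest mouse had 23.8 (log2 0.67 and -0.46, adjusted p = 0.0033 and 0.00555). H2-M3, which presents formylated peptides, rose by 0.61 and fell by 0.53 on the log2 scale in the same comparisons (adjusted p = 0.0185 and 0.0164). Fcgrt, the neonatal Fc receptor heavy chain, which pairs with B2m outside the H2 complex, rose by 0.47 (adjusted p = 0.00319) and fell by 0.36 (adjusted p = 0.00352). The 3 tested chains without a call in either of these comparisons were Cd1d1, Mr1 and Hfe, named after their values were seen. Without CD VEH mouse A, 5 of the 12 rose and 2 fell, and H2-M3 passed in neither comparison. The 2 of 12 that fell are near the share of all tested genes (17.0% in the fit with all mice).

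Among 17 transcription factors that act on class I promoters, 3 rose and 1 fell in CD VEH against WT VEH, with a median log2 fold change of 0.12, beside the 15.0% and 15.4% of all tested genes called higher and lower. Irf1, which binds interferon regulatory factor elements, was at 14.9 and 15.7 CPM in WT VEH, at 21.9, 27.8 and 22.7 in WT JZL184, at 25.3, 24.2 and 26.6 in CD VEH and at 15.0, 18.7 and 17.3 in CD JZL184. WT VEH and CD JZL184 were below both other groups in every mouse. Its log2 fold change was 0.73 for CD VEH over WT VEH (adjusted p = 0.00288), 0.66 for WT JZL184 over WT VEH (adjusted p = 0.00361) and -0.58 in CD JZL184 against CD VEH (adjusted p = 0.00284), and its interaction was -1.24 (adjusted p = 0.000174). Irf9, a factor of the type I interferon response, had 0.69 (adjusted p = 0.00444), 0.50 (adjusted p = 0.0133) and -0.52 (adjusted p = 0.00553) in the same order. Ciita, the class II counterpart of Nlrc5, did not pass in any comparison and had a negative sign for CD VEH over WT VEH (-0.42, adjusted p = 0.0985). Atf1, a CREB family factor, fell in CD VEH (-0.33, adjusted p = 0.00466) and rose in CD JZL184 against CD VEH (0.19, adjusted p = 0.0206). Without CD VEH mouse A, 2 of the 17 rose and 1 fell in CD VEH, and the rise of Atf1 in CD JZL184 did not pass.

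Interferon transcripts were at or near 0. Ifng had at most 3 counts in a mouse and Ifnb1 at most 1, and Ifna4 and Ifnl3 had 0 in every mouse, which allows up to 0.0325 to 0.0431 CPM. Of the 8 tested receptors, kinases and inhibitors, 2 rose in CD VEH against WT VEH and fell in CD JZL184 against CD VEH. These were Ifnar2 (log2 0.46 and -0.22, adjusted p = 0.00306 and 0.0226) and Ifngr1 (0.39 and -0.40, adjusted p = 0.0128 and 0.00616), each a receptor chain. Without CD VEH mouse A both still rose and Ifngr1 alone fell. Among all tested genes 15.0% were called higher and 17.0% lower in these comparisons, so 2 of 8 is near the background. Of 17 tested interferon-stimulated genes, 14 rose in CD VEH against WT VEH (median log2 0.55), 14 rose in WT JZL184 against WT VEH (median 0.61), 12 fell in CD JZL184 against CD VEH (median -0.51) and 15 had a negative interaction (median -1.14). The shares of all tested genes called in these directions were 15.0%, 15.4%, 17.0% and 26.2%, in the same order. Isg15, a ubiquitin-like modifier, was at 2.84 and 3.75 CPM in WT VEH, at 9.65, 5.56 and 7.75 in CD VEH and at 2.89, 4.76 and 4.31 in CD JZL184 (log2 1.21 and -0.94, adjusted p = 0.00698 and 0.00836). Gbp3, an interferon-induced GTPase, had log2 fold changes of 0.74 (adjusted p = 0.00619) and -0.54 (adjusted p = 0.0103), and the chemokine gene Cxcl9 of 0.77 (adjusted p = 0.0246) and -0.72 (adjusted p = 0.0163). Without CD VEH mouse A, 10 of the 17 rose in CD VEH and 8 fell in CD JZL184.

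The class II genes are used by antigen-presenting cells for peptides from outside the cell. Of 6, 2 rose in CD VEH against WT VEH (H2-Aa at 0.79, adjusted p = 0.0177, and H2-Eb1 at 0.76, adjusted p = 0.0301), 6 rose in WT JZL184 against WT VEH and 1 fell in CD JZL184 against CD VEH (H2-Aa, -0.58, adjusted p = 0.0315). All 6 had a negative interaction, with a median log2 value of -1.38. Among all tested genes, 15.0%, 15.4%, 17.0% and 26.2% were called in these directions, in the same order. The 1 of 6 that fell is thus near the background. With CD VEH mouse A left out, 3 rose in CD VEH (H2-Aa, H2-Ab1 and H2-Eb1) and 1 fell in CD JZL184 (H2-Aa).

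Markers of several cell types moved with the class I genes. In whole ventricle, more RNA per cell and more cells of a type cannot be told apart. The summed level of 5 endothelial markers was 455 and 457 CPM in WT VEH, 703 to 725 in WT JZL184, 570.2 to 643 in CD VEH and 442 to 518 in CD JZL184, and 4 of the 5 rose in CD VEH against WT VEH and 4 fell in CD JZL184 against CD VEH. The summed level of 6 macrophage markers was 229 and 240.3 CPM in WT VEH, 300.1 to 507 in WT JZL184, 295 to 385 in CD VEH and 202 to 233 in CD JZL184. Of these, 4 rose in CD VEH against WT VEH and all 6 fell in CD JZL184 against CD VEH, while without CD VEH mouse A 1 rose and 4 fell. In these comparisons 15.0% of all tested genes were called higher and 17.0% lower. The 1 macrophage marker that rose without mouse A is thus near the background. Markers of both cell types were thus higher in the same groups as the class I genes.

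The 4 general leukocyte markers summed to a mean of 29.8 CPM (SD 1.59, n = 2) in WT VEH, 34.6 to 59.7 in WT JZL184, 36.6 to 45.7 in CD VEH and 28.0 to 34.2 in CD JZL184, and 1 rose in CD VEH against WT VEH (0 without CD VEH mouse A). Fibroblast markers (4 genes) were at 490.0 and 519 CPM in WT VEH, 659 to 808 in WT JZL184, 599 to 686 in CD VEH and 468 to 507 in CD JZL184. Smooth muscle cell and pericyte markers (4 genes) were at 568 and 570.2 CPM, 812 to 869.5, 771 to 892 and 551 to 564 in the same order. Cardiomyocyte markers (5 genes) had the opposite order, at 25472 and 26060.1 CPM in WT VEH, 16712 to 23344 in WT JZL184, 20172 to 23135 in CD VEH and 24963 to 26819 in CD JZL184. In CD VEH against WT VEH, 2 of the 4 fibroblast markers and 3 of the 4 smooth muscle cell and pericyte markers rose (without CD VEH mouse A, 1 of each, Dcn and Rgs5), and 2 of the 5 cardiomyocyte markers fell (1 without that mouse). Of all tested genes 15.0% were called higher and 15.4% lower there, so the counts of 1 in these lists are near the background. Myh6 made up much of the cardiomyocyte sum. The part of these cell types in the class I levels was not tested.

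Markers of lymphocytes were low. The 6 T cell markers summed to between 2.02 and 2.70 CPM and the 5 NK and cytotoxic cell markers to between 0.207 and 0.83 CPM over the 11 mice. Cd4 had 51 to 94 counts per mouse, Cd8a 33 to 53, Trac 23 to 54 and Cd3e 0 to 11, and the cytotoxic cell genes Gzma had 3 to 15, Prf1 1 to 11 and Gzmb 0 to 8, and none of these markers passed the filter on low counts. The 4 B cell markers summed to 1.56 and 1.78 CPM in WT VEH, 2.02 to 3.62 in WT JZL184, 1.98 to 2.19 in CD VEH and 1.28 to 1.48 in CD JZL184, so the vehicle WT and treated CD mice were below both other groups. The 4 dendritic cell markers had the same arrangement, at 17.4 and 18.2 CPM, 24.1 to 25.6, 21.2 to 22.6 and 18.5 to 20.3. Among them only Zbtb46, which endothelial cells also express, passed the filter, and it rose in CD VEH against WT VEH and fell in CD JZL184 against CD VEH (the fall did not pass without CD VEH mouse A), whereas Xcr1 was at 0.196 to 0.563 CPM and Flt3 at 0.0621 to 0.324 CPM.

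**Figure D4:**
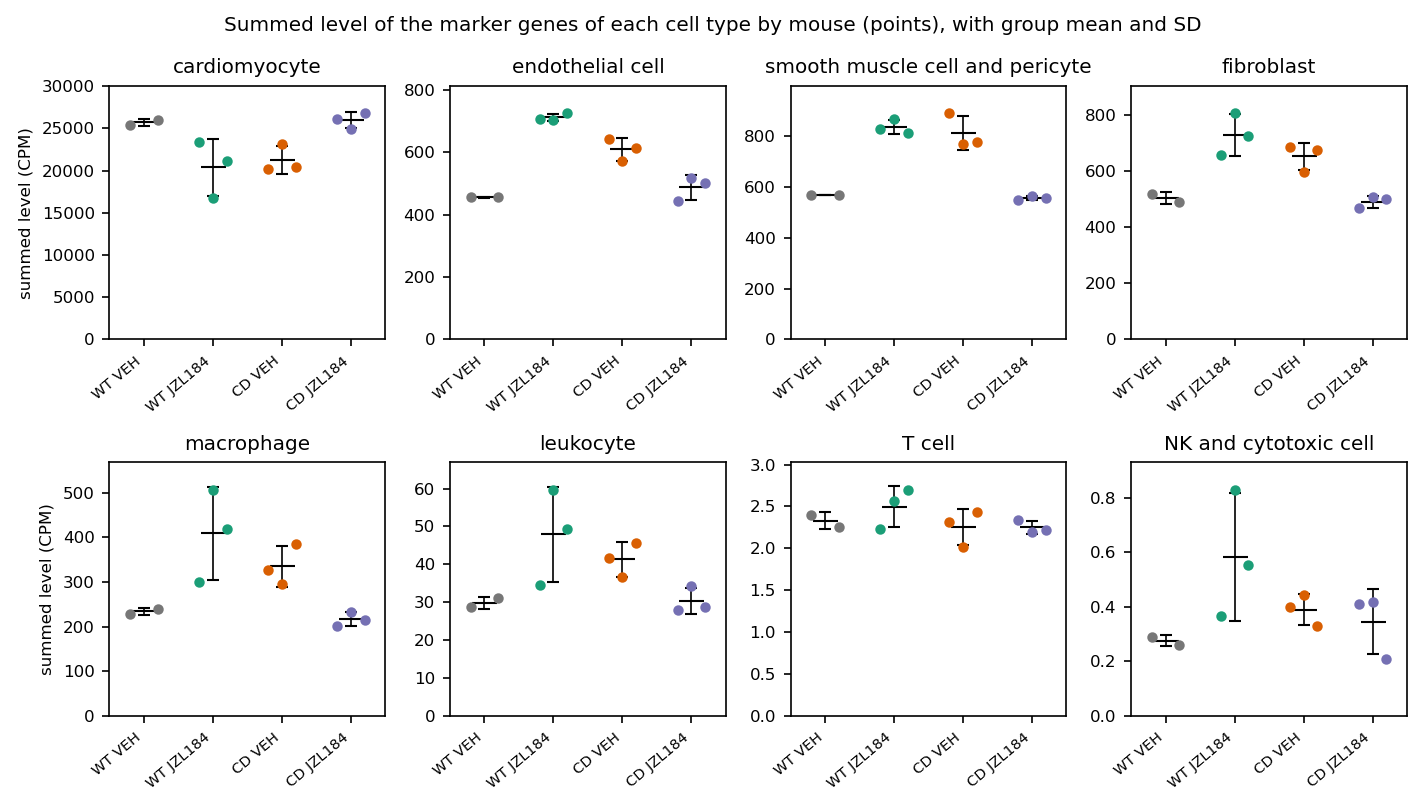
Summed level in CPM (vertical axes, from 0) of the marker genes of 8 cell types in the 4 groups. Points are mice, horizontal bars are means and vertical bars are SD. Endothelial markers are at 455 and 457 CPM in WT VEH and at 570.2 to 643 CPM in CD VEH, whereas T cell markers stay between 2.02 and 2.70 CPM in all mice.

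The genes whose pattern over the 11 mice was most like the mean of the 10 genes (each standardised on the log2 CPM scale) were Ephb4 (Pearson r = 0.988), Triobp (0.984), Ly6e (0.981), Cox4i2 (0.981) and Mxra8 (0.980), of 11309 genes compared. These values are a description over the same 11 libraries, with no test. Ephb4 is a receptor of venous endothelium and Ly6e is interferon-inducible. The Spearman coefficients of the 5 genes were between 0.918 and 0.982. By that measure all 5 ranked lower, with Ephb4 at rank 34, Triobp at 16, Ly6e at 10, Cox4i2 at 368 and Mxra8 at 113. When any one mouse was left out, r stayed between 0.971 and 0.992.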

How the data were processed

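RNA from the ventricles of 11 mice was sequenced by the authors. The deposited values are estimated counts, obtained by the authors with Salmon 0.7.2 (per the labels) on Ensembl release 85 of GRCm38 and summed to genes with tximport 1.2.0, without normalization and without the transcript lengths of tximport. Columns name a group and a letter, so mice were assigned to groups but not to numbered samples, and 0 columns lacked a group.

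The estimated counts were rounded and tested with edgeR 4.0.16 (R 4.3.3, limma 3.58.1, TMM factors, quasi-likelihood test, Benjamini-Hochberg adjustment). All 4 groups entered a single model, and a gene was kept where its log2 CPM averaged 1 or more. The common biological coefficient of variation was 9.13%. SE were taken from the F statistic, and intervals are at 95%. The count test was used for all comparisons, and DESeq2 1.42.0 was an alternative. Within a group, mice differed beyond sampling noise (chi-square of 16.8 to 91.1 per gene for each pair), and none was counted as a repeat of another. Mitochondrially encoded genes held 36.4% to 46.6% of all counts. Identifiers were matched to GENCODE M21 for 22238 of 22608 genes, 16070 with the same version.

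The members, lists and tests were chosen with earlier results of these data known. Named are the 10 members, from each list up to 3 called genes of lowest adjusted p per comparison, 8 fixed partners and regulators (1 of them is not reported here), and the 5 most alike genes. Some genes that the rule names are left out of the text. The tests were tested on simulated data. Sums of heavy chains and lists without CD VEH mouse A were added after seeing the data.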

Additional observations from a re-analysis of the deposited data

Results flagged for a closer look

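The effect of JZL184 differed between genotypes for all 10 genes by the test of the difference itself, as for 26.2% of all tested genes in this direction. The estimates had opposite signs in WT and CD mice. Within CD mice the effect did not pass for Tap1, Tap2, Tapbp and Nlrc5, and within WT mice it did not pass for Nlrc5. On the log2 scale the effect in CD mice minus that in WT mice was -1.59 for B2m, -1.27 for H2-K1 and -1.39 for H2-D1. It was -1.34 for Psmb8, -1.22 for Psmb9 and -0.61 for Psmb10. It was -0.93 for Tap1, -0.55 for Tap2, -0.49 for Tapbp and -0.80 for Nlrc5. With an offset for gene length, all 10 differences still passed, from -1.22 (H2-D1) to -0.27 (Psmb10). Groups of 2 or 3 mice are too small for a test of single outlying mice.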

How the results depend on the processing

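The counts of genes passing were 8 (CD VEH against WT VEH), 6 (CD JZL184 against CD VEH), 9 (WT JZL184 against WT VEH), 7 (CD JZL184 against WT JZL184), 0 (CD JZL184 against WT VEH) and 10 (interaction). At an adjusted p under 0.01 the first 4 were 4, 2, 4 and 4, and with the gene length offset 2 genes passed in CD JZL184 against CD VEH. When each mouse was left out in turn, which can leave 1 WT VEH mouse assumed to vary like the other groups, the counts were 2 to 9, 2 to 6, 4 to 10, 5 to 10, 0 to 0 and 9 to 10 in the same order. DESeq2, RLE factors, no filter, a minimum of 10 counts per mouse, fits of the compared groups alone and no mitochondrial genes kept each count within 1.5 times. Of 1070 values of single genes under these alternatives, 990 kept direction and side of the threshold, 69 no longer passed, 8 passed newly and 3 changed sign. The last were all in CD JZL184 against WT VEH, where none passed: Psmb8 (-0.01 without CD JZL184 mouse C) and Nlrc5 (-0.06 without CD JZL184 mouse E and -0.11 without WT VEH mouse C). With any one mouse left out, Psmb8 ranged from -0.01 to 0.27 and Nlrc5 from -0.11 to 0.31 there. The cause was not tested. No paired analysis was possible because the columns carry none of the replicate numbers of the labels, and nothing ties a letter that recurs across groups to a shared litter, batch or day.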
